A study of Mus musculus with 4 samples.

Results

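The genes described here encode MT1-MMP (Mmp14), the other membrane-type matrix metalloproteinases and the proteins that act with MT1-MMP in the activation of proMMP-2. They were chosen by name: 10 genes, of which 9 had a row annotated with that single symbol among 22180 genes on the array, and each of the 9 had exactly 1 such row. Mmp15, which encodes MT2-MMP, was not analysed here. RNA came from primary vascular smooth muscle cells (VSMCs) of mouse thoracic aorta, cultured for 5 days, and was hybridised to Mouse Gene ST 2.1 arrays. The knockout group held 2 arrays from SM22α-Cre(+) Mmp14 fl/fl Apoe-/- mice, and the control group 2 arrays from SM22α-Cre(-) Mmp14 fl/fl Apoe-/- mice. Both groups thus carried floxed Mmp14, lacked Apoe and had eaten a Western diet for 3 months. The smooth muscle promoter SM22α (Tagln) drove Cre, so cells in which that promoter was never active kept Mmp14. The comparison asked which transcripts depend on MT1-MMP in these cells.

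MT1-MMP is a collagenase anchored in the plasma membrane. It is made as a proenzyme that furin-like convertases cleave, and it then degrades fibrillar collagen around the cell and sheds surface proteins. To activate proMMP-2, an MT1-MMP molecule at the surface binds TIMP-2, the free end of TIMP-2 captures proMMP-2, and a neighbouring MT1-MMP without inhibitor cleaves the captured proenzyme. TIMP-2 is therefore both adaptor and inhibitor. MT1-, MT2-, MT3- and MT5-MMP span the membrane, whereas MT4- and MT6-MMP are held by a glycosylphosphatidylinositol anchor. In the arterial wall these enzymes are known for remodelling of the matrix through which smooth muscle cells migrate.

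Of the 9 genes, Mmp14, Mmp16, Mmp13, Timp2 and Reck read lower in both knockout arrays than in both control arrays, and no gene read higher without overlap. Across all tested genes, 27.5% read lower and 16.7% higher without overlap. The largest difference was that of Mmp16, at 0.299 times the control level, followed by Mmp13 at 0.436 and Reck at 0.440 times. Mmp14 itself read 0.636 times and Timp2 0.774 times the control level. Mmp2, Mmp17, Mmp24 and Mmp25 overlapped between the groups. None of these differences passed the test across all genes.

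That test was limma's moderated fit of knockout minus control on the log2 values, with Benjamini-Hochberg adjustment over 12550 genes whose mean was at or above the median of all row means (3.02). Mmp25, with a mean of 2.89, lay below that level, and the other 8 were tested. At an adjusted p under 0.05, 0 of 12550 genes (0%) and 0 of the 8 were called. The smallest adjusted p of any gene was 0.104. At an unadjusted p under 0.05 limma gave 1465 genes (11.7%), with 6.78% lower and 4.89% higher. Among the 8 tested genes, 4 were lower at that unadjusted level (Mmp14, Mmp16, Timp2 and Reck) and 0 were higher. That count was 2 without control replicate 2 (Mmp16 and Reck), and 3 without any other single array. Mmp16 and Reck stayed at that level in all 4 such fits and Timp2 in none. Without knockout replicate 2 the third gene was Mmp13, and Mmp14 had an unadjusted p of 0.052 by limma. The groups did not overlap, in either direction, for 44.3% of all tested genes. For the 8 the counts without overlap were 5 lower and 0 higher. A difference of at least 1 log2 unit downwards without overlap was seen for 1.29% of tested genes and for 3 of the 8. The median difference was -0.51 over the 8 and -0.05 over all tested genes. The genes were chosen with earlier results of these arrays known, so these counts describe them and test nothing. With 2 arrays against 2, an exact two-sided permutation test cannot go below p = 0.33.

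The arrays resembled each other closely as a whole. Pearson's r across all rows, which are not independent replicates, was 0.982 between the knockout arrays, 0.981 between the control arrays and 0.974 to 0.980 across groups. Of 13 smooth muscle marker genes, 6 read higher and 7 lower in the knockouts (median difference -0.004, none called). These differences compare the groups and cannot show which cells the arrays held. Levels within the list varied widely: Myh11 had a mean of 5.26, and Myocd, the dimmest, had a mean of 3.26. Acta2, smooth muscle alpha actin, read 11.4 and 10.9 in the knockout arrays, against 11.3 and 11.0 in the control arrays. Single markers differed more than the median: Actg2, the enteric smooth muscle actin, by 1.14 and Smtn, smoothelin, by -0.55, both without overlap (limma, adjusted p = 0.364 and 0.335). Markers of other cell types were not the same in both groups. Of 20 macrophage markers 19 read higher in the knockouts. Their summed level on the linear scale was 11454 to 13471 in the knockout arrays, against 7112 to 7545 in the control arrays, so both knockout arrays exceeded both control arrays. Of the 20, 17 were higher without overlap. Mrc1, Ptprc and Adgre1 differed most, by 2.08, 1.75 and 1.74 (limma, adjusted p = 0.218, 0.137 and 0.144). Lyz2 was the brightest macrophage marker, at 11.1 and 11.3 in the knockout arrays, against 11.0 and 11.0 in the control arrays. Its difference was only 0.22 (limma, adjusted p = 0.619). Lyz2 thus read at about the level of Acta2 in both groups, but that is 1 gene. The other macrophage markers varied widely in the control arrays. Ctss read 10.4 and 10.3 there, and Mrc1 4.89 and 5.72. Cd163 was the dimmest macrophage marker, with a mean of 2.72. Of 14 endothelial markers 11 read lower in the knockouts. The summed level of the 14 was 270.0 to 302.8 in the knockout arrays, against 718 to 1404 in the control arrays. Emcn, at 9.29 and 8.13, and Cdh5, at 8.72 and 6.97, were the brightest in the control arrays. They therefore weighed most in that sum. Ptprb, Cdh5, Pecam1 and Emcn differed most, by -2.88, -2.51, -2.49 and -2.48, each without overlap. Ptprb had the smallest adjusted p of any gene (limma, adjusted p = 0.104). The 3 that read higher were Kdr by 0.32 without overlap, and Vwf by 0.29 and Flt1 by 0.10 with overlap. Tek was the dimmest endothelial marker, with a mean of 2.68. The 9 measured fibroblast markers split into 6 higher and 3 lower, with summed levels of 971 to 1128 in the knockout arrays, against 886 to 1090.0 in the control arrays. The largest differences in that list were downward and without overlap, -2.40 for Cd34 and -1.51 for Dpt (limma, adjusted p = 0.262 and 0.356). Cd34 read 3.52 and 4.52 in the knockout arrays, against 7.0 and 5.84 in the control arrays. The endothelial marker Emcn had the same order of arrays, with 5.98 and 6.48 against 9.29 and 8.13. Whether the Cd34 signal came from fibroblasts was not tested. Serpinf1 and Col1a1 read higher without overlap, by 0.52 and 0.29 (limma, adjusted p = 0.391 and 0.497). The mean log2 level of the list differed by -0.22, whereas the median difference over the 9 was 0.21. Of 7 neutrophil markers, 4 read higher and 3 lower, with summed levels of 71.5 to 139.5 in the knockout arrays, against 69.3 to 81.0 in the control arrays, and 5 of the 7 lay below the filter level. An array has no true zero, so no marker could be called absent.

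**Figure D1:**
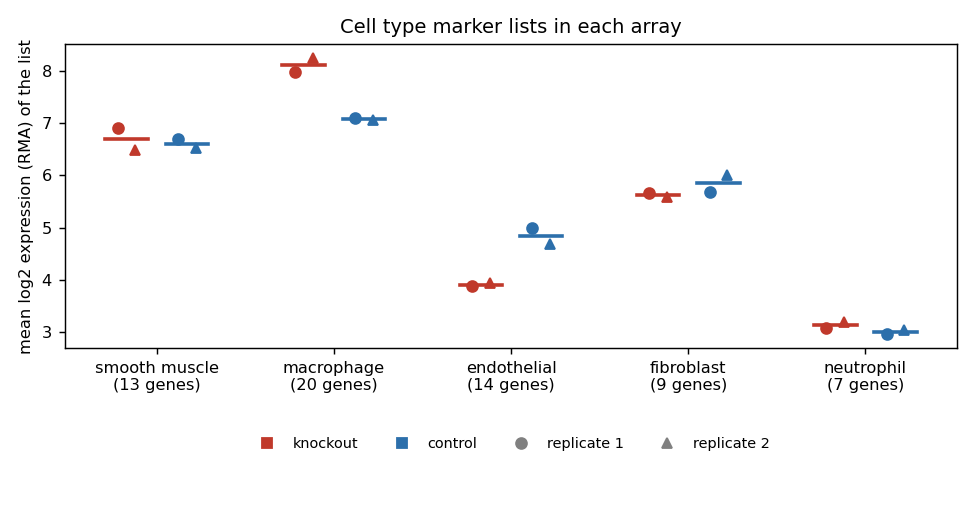
Mean log2 expression of each cell type marker list in each array, with knockout arrays left of control arrays in each column. Circles and triangles are replicates 1 and 2, and bars are the group means. The macrophage mean lay at 7.98 and 8.25 in the knockout arrays, above 7.10 and 7.06 in the control arrays, and the endothelial mean at 3.88 and 3.93, below 5.0 and 4.70.

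Mmp14 read 8.27 and 8.19 in the knockout arrays, against 8.71 and 9.05 in the control arrays. Both knockout arrays were below both control arrays, with a gap of 0.45 log2 units between the groups. The knockout arrays differed from each other by 0.08 and the control arrays by 0.34. The means were 8.23 ± 0.05 in knockout and 8.88 ± 0.24 in control cells (SD, n = 2 each), a log2 difference of -0.65 (95% interval -1.10 to -0.20) with an adjusted p of 0.319 by limma. Of all tested genes, 3.94% had a difference this low or lower. The Mmp14 row stayed above the 75th percentile of row means (4.90) in both knockout arrays. Which exons are floxed, and where the probes of this row lie, is not given in the sources used here. The row therefore bears on the label only as a lower Mmp14 signal in the arrays labelled knockout. In such bulk RNA, fewer cells of a type and less RNA per cell cannot be told apart. The macrophage markers were higher and the endothelial markers lower between the same groups, and their part in the Mmp14 value was not tested.

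**Figure D2:**
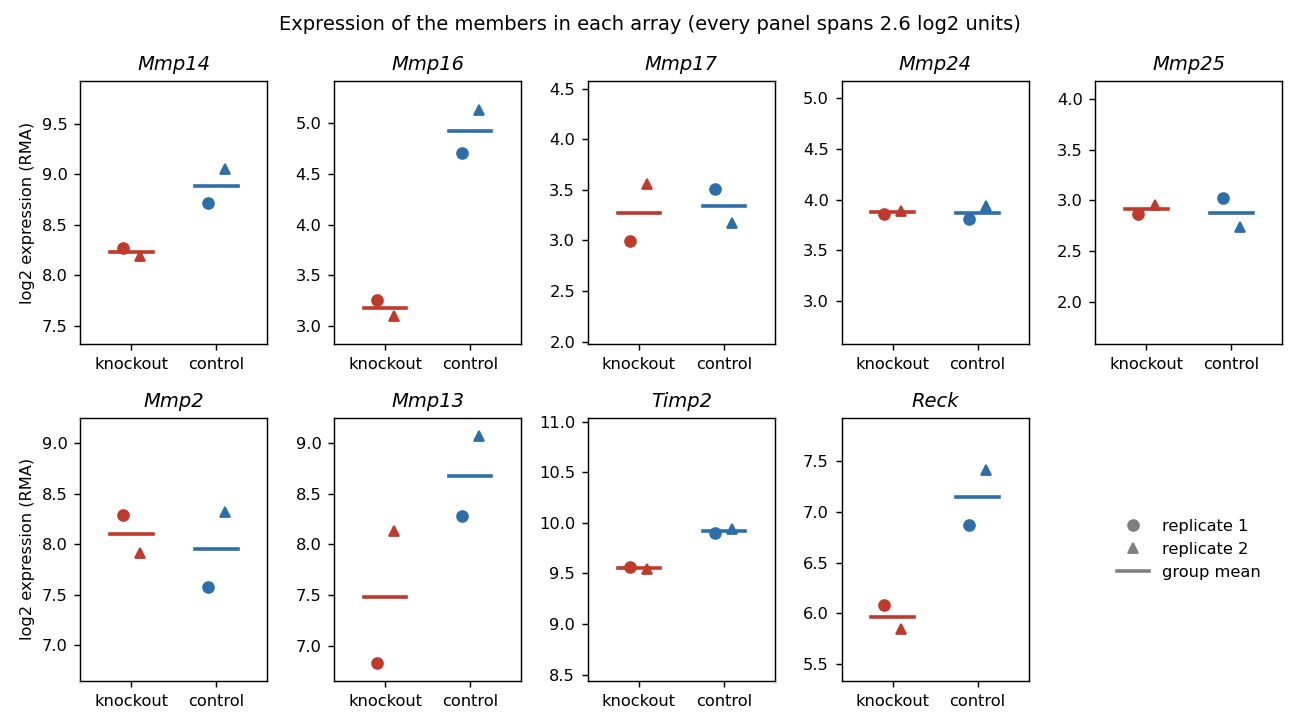
Log2 expression (RMA) of the 9 genes in each array, with the knockout arrays left and the control arrays right in every panel. Circles and triangles are replicates 1 and 2 and bars are group means; all panels have the same height in log2 units. In the panels of Mmp14, Mmp16, Mmp13, Timp2 and Reck the knockout arrays lie below both control arrays, and in the other 4 the groups overlap.

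Among the other membrane-type enzymes the difference was uneven. Mmp16 encodes MT3-MMP, a transmembrane enzyme that can also activate proMMP-2. It read 3.25 and 3.10 in the knockout arrays, against 4.71 and 5.13 in the control arrays. The groups were 1.45 log2 units apart at their nearest arrays, and the spread within a group was at most 0.43. The means were 3.18 ± 0.11 in knockout and 4.92 ± 0.30 in control cells (SD, n = 2 each), a difference of -1.74 (95% interval -2.26 to -1.23). It ranked 34 by limma p among 12550 genes, with an adjusted p of 0.147. The knockout arrays sat just above the filter level of 3.02, and no background was measured, so the size of this difference may be understated.

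Mmp17 encodes MT4-MMP, and read 2.99 and 3.56 in the knockout arrays, against 3.50 and 3.17 in the control arrays. The groups overlapped, and the difference of -0.06 had a 95% interval of -0.72 to 0.59 (limma, adjusted p = 0.947). Mmp24 encodes MT5-MMP, best known from the nervous system. It read 3.86 and 3.89 in the knockout arrays, against 3.81 and 3.94 in the control arrays. All 4 arrays lay within 0.13 log2 units, and the 95% interval of the difference ran from -0.36 to 0.36 (limma, adjusted p = 0.998). A second row, annotated with Mmp24 together with another gene and so not assigned to either, read 5.76 and 5.69 in the knockout arrays, against 6.10 and 5.99 in the control arrays. That row did not overlap between the groups, unlike the row of Mmp24 alone. The sign of the Mmp24 difference turned when the arrays were normalised again or centred. Mmp25 encodes MT6-MMP, known as a leukocyte enzyme. It read 2.87 and 2.95 in the knockout arrays, against 3.02 and 2.74 in the control arrays. In a fit of all genes without the level filter its difference was 0.03 (95% interval -0.35 to 0.41; limma, adjusted p = 0.971). Macrophage markers were higher in the same knockout arrays, and Mmp25 read at or below 3.02 in all 4 arrays.

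The difference of Mmp16 relative to Mmp14 could be read within each array. The Mmp16 minus Mmp14 difference was 1.09 log2 units lower in the knockouts than in the controls, and the SD within a group was at most 0.07. The exact permutation test gave p = 0.33, the smallest this design allows (adjusted p = 0.5 over the 9 gene pairs compared). Relative to Mmp14, the knockouts were higher by 0.65 for Mmp24, 0.68 for Mmp25, 0.80 for Mmp2 and 0.28 for Timp2. For Reck the change was -0.53. None of these overlapped between groups (exact permutation p = 0.33 each, adjusted p = 0.5). Mmp14 itself differed by -0.65, Mmp24 by 0.002 and Mmp25 by 0.03, so the values for Mmp24 and Mmp25 almost wholly reflect the Mmp14 difference. Mmp2 differed by 0.15 with overlap, so its value mostly reflects it too. Timp2 read lower, by -0.37, and its value only means that it differed less than Mmp14. Over the 9 pairs the permutation p was 0.33 or 0.667, so none could pass.

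**Figure D3:**
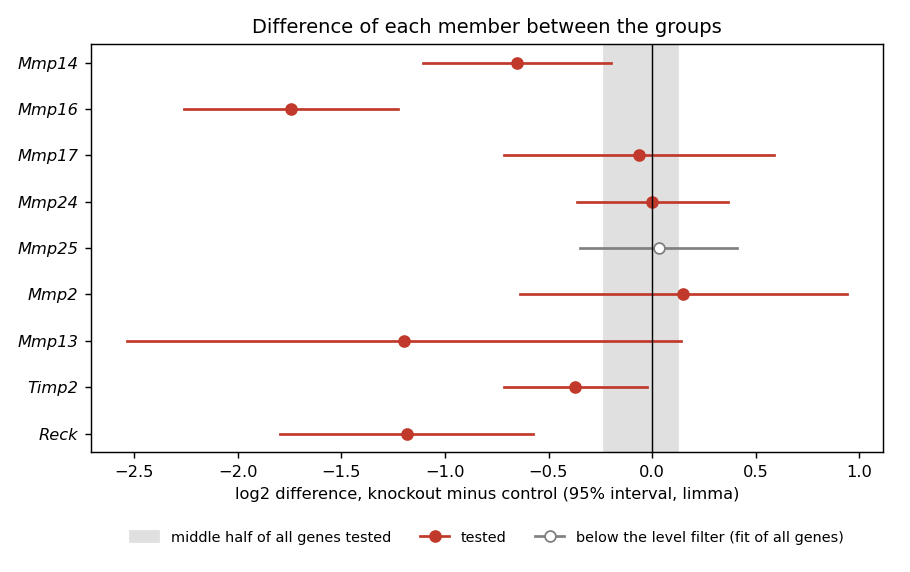
Log2 difference between knockout and control (knockout minus control) for each of the 9 genes, with 95% intervals from limma. The grey band spans the quartiles of all tested genes, from -0.23 to 0.12, and the open point is Mmp25, taken from the fit without the level filter. The intervals of Mmp14, Mmp16, Timp2 and Reck lie below 0, and those of the other 5 include 0.

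Mmp2 encodes gelatinase A, the proenzyme that MT1-MMP activates. It read 8.29 and 7.91 in the knockout arrays, against 7.58 and 8.32 in the control arrays. The control arrays enclosed both knockout arrays. The means were 8.10 ± 0.27 in knockout and 7.95 ± 0.53 in control cells (SD, n = 2 each), a difference of 0.15 with a 95% interval of -0.64 to 0.94 (limma, adjusted p = 0.882). The interval allows a change of either sign, so the Mmp2 transcript was not shown to differ or to be equal. Leaving out control replicate 1 gave a difference of -0.22, and leaving out knockout replicate 1 gave -0.04.

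Mmp13 encodes collagenase-3, a secreted enzyme whose proform MT1-MMP and MMP-2 can cleave. It read 6.83 and 8.13 in the knockout arrays, against 8.28 and 9.07 in the control arrays. The groups did not overlap, but only 0.15 log2 units separated knockout replicate 2 from control replicate 1, while the knockout arrays differed from each other by 1.3. The means were 7.48 ± 0.92 in knockout and 8.68 ± 0.56 in control cells (SD, n = 2 each), a difference of -1.20 (95% interval -2.54 to 0.14; limma, adjusted p = 0.469). Leaving out knockout replicate 1 gave -0.55, leaving out knockout replicate 2 gave -1.85 and leaving out control replicate 2 gave -0.80.

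**Figure D4:**
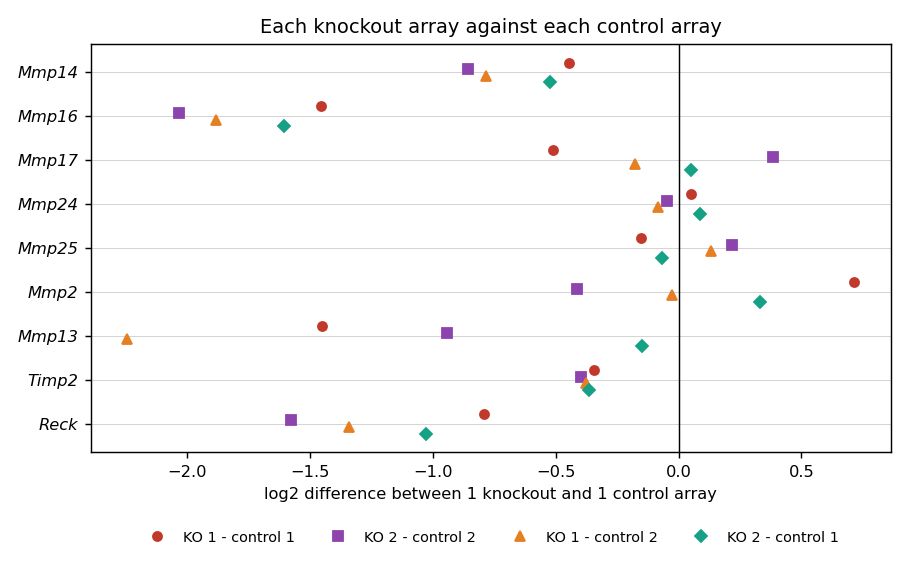
Log2 difference of each knockout array from each control array, 4 values per gene. For Timp2 the 4 values lie between -0.40 and -0.34, for Mmp13 between -2.24 and -0.15, and for Mmp2 on both sides of 0, from -0.41 to 0.72.

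Of the inhibitors, Timp2 had the tightest arrays of the 9 genes. It read 9.56 and 9.54 in the knockout arrays, against 9.90 and 9.94 in the control arrays. The SD was 0.02 in either group, where the median SD of tested genes was 0.13. The means of 9.55 in knockout and 9.92 in control cells gave a difference of -0.37 (95% interval -0.71 to -0.02; limma, adjusted p = 0.399). limma moderates each gene's variance towards that of all genes, and so gave Timp2 an SE of 0.13. With a variance trend over expression level the SE was 0.08 and the adjusted p 0.255 (limma). Leaving out single arrays moved the Timp2 difference only from -0.39 to -0.35.

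Reck encodes a glycoprotein anchored at the cell surface that restrains MT1-MMP, MMP-2 and MMP-9. It read 6.08 and 5.84 in the knockout arrays, against 6.87 and 7.42 in the control arrays. The gap between the groups was 0.79, larger than the spread of 0.24 within knockouts and of 0.55 within controls. The means were 5.96 ± 0.17 in knockout and 7.15 ± 0.39 in control cells (SD, n = 2 each), a difference of -1.18 (95% interval -1.80 to -0.57). Its limma p ranked 234 among 12550 genes (adjusted p = 0.243), and 0.853% of tested genes had a difference this low or lower. Endothelial markers, with 11 of 14 lower in the same arrays, moved with the lower readings of Mmp16, Mmp13, Timp2 and Reck, and macrophage markers moved the other way. Their part in these values was not tested.

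Promoter sequence is shown for 4 of the 5 genes without overlap, because these genes read lower together. The windows hold the 250 bases before a transcript start in RefSeq (build GRCm38.p6), which had entries for 7 of the 10 genes. None was used for Mmp16, Mmp17 and Mmp2. The Reck window ends at 43875529, past the gene's first listed base at 43875521, so its last bases lie within the gene. Capitals mark matches, on either strand, to 6 motifs written in letters and to the CArG box of serum response factor. The motifs were the GC box GGGCGG, the EGR motif GCGNGGGCG, the TATA box TATAAA, the AP-1 motif TGANTCA, the PEA3 (Ets) motif AGGAAG and the TEAD motif GGAATG.
Mmp14, chr14:54431348-54431597, plus strand: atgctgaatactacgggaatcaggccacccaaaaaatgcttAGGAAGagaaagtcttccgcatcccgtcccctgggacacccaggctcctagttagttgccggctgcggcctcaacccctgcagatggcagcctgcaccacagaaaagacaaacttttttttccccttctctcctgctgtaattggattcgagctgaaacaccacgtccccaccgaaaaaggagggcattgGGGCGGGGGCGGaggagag
Mmp13, chr9:7272264-7272513, plus strand: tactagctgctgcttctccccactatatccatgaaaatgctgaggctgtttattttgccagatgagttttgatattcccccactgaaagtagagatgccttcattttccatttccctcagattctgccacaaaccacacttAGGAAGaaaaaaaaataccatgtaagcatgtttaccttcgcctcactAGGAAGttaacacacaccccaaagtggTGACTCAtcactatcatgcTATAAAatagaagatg
Timp2, chr11:118355412-118355661, minus strand: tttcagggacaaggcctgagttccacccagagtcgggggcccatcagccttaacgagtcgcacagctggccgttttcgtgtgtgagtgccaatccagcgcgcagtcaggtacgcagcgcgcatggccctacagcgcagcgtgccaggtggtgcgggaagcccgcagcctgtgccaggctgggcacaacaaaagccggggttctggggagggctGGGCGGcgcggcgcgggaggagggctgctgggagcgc
Reck, chr4:43875280-43875529, plus strand: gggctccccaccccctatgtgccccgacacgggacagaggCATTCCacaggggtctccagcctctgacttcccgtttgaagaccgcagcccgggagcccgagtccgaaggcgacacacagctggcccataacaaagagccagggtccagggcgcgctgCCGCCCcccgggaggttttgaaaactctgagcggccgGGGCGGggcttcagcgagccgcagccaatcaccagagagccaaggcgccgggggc

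The Mmp14 window held 2 GC boxes within 19 bases of the start and an EGR match that overlaps both, and it held 1 PEA3 match farther upstream. The Mmp13 window had another make-up: 1 TATA box, 1 AP-1 match and 2 PEA3 matches, and no GC box. Timp2 held 1 GC box, and Reck held 2 GC boxes and 1 TEAD match. None of the 7 windows held a CArG box. Among 32851 RefSeq promoter windows of the same length, 32.7% held a GC box, 4.70% an EGR match, 12.4% a TATA box, 6.75% an AP-1 match, 29.5% a PEA3 match, 12.6% a TEAD match and 1.47% a CArG box. Mmp24 and Mmp25, whose groups overlapped, also held GC boxes (3 and 2), and Mmp24 held an EGR match. No motif of this set was shared by all 4 printed windows. The matches describe letters and show no binding.

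The genes whose 4-array profile was most like that of Mmp14 were Tob1, Tshz1 and Ythdc2. Likeness was the Euclidean distance between log2 values after centring each gene on its own mean, over 4 arrays and 11426 candidate genes. Tob1, at a distance of 0.035, read 4.10 and 4.01 in the knockout arrays, against 4.55 and 4.84 in the control arrays. Tshz1 lay at 0.038 and Ythdc2 at 0.053. For Mmp16 the nearest were Cavin2 at 0.15, Rnd1 at 0.307 and Hspb7 at 0.315. Cavin2, which encodes a coat protein of caveolae, read 7.46 and 7.35 in the knockout arrays, against 8.86 and 9.49 in the control arrays. Within the set, Mmp14 was nearest to Timp2 (0.36) and then to Reck (0.56), and Mmp16 was nearest to Reck (0.57). With 4 arrays these distances only describe the profiles.

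Among genes that process and transport MT1-MMP, Cav1 had the largest difference. Of 18 such genes, all tested, 7 read higher and 11 lower, with a median difference of -0.06 (0 called, 1 lower at unadjusted p under 0.05). Furin, the convertase that activates proMT1-MMP, read 7.07 and 7.37 in the knockout arrays, against 7.23 and 6.98 in the control arrays. These overlapped. Cav1, the caveolae protein through which MT1-MMP can be internalised, read 6.57 and 6.94 in the knockout arrays, against 8.07 and 7.65 in the control arrays. That difference of -1.10 (95% interval from limma -1.69 to -0.51) had an adjusted p of 0.252. Caveolae are abundant in endothelium, whose markers were lower in the same arrays, and their part in the Cav1 value was not tested. The convertase gene Pcsk7 differed by -0.33, Wasl, an activator of actin nucleation, by -0.33 and the tetraspanin gene Cd151 by -0.26, each without overlap.

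Of 14 surface partners and substrates, 11 were tested; 4 read higher and 7 lower, with a median of -0.14 (0 called; at unadjusted p under 0.05, 1 higher and 2 lower). Sdc1, the heparan sulfate proteoglycan syndecan-1, read 7.94 and 7.93 in the knockout arrays, against 6.99 and 7.45 in the control arrays (difference 0.72; limma, adjusted p = 0.335). Eng, the TGF-beta co-receptor endoglin found mainly on endothelium, differed by -0.69, Icam1 by -0.40 and the receptor kinase gene Axl by -0.28. Lrp1, the endocytic receptor that clears metalloproteinases and is itself shed by MT1-MMP, differed by 0.03 and overlapped.

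Matrix substrates went both ways. Of 11 listed, 10 had a row and 8 were tested, with 4 higher and 4 lower and a median of 0.05 (0 called; at unadjusted p under 0.05, 1 higher and 3 lower). Col3a1, the chain of type III collagen, read 7.0 and 6.22 in the knockout arrays, against 5.45 and 5.40 in the control arrays (difference 1.18; limma, adjusted p = 0.287). Both chains of type I collagen read higher without overlap, Col1a1 by 0.29 and Col1a2 by 0.24. The basement membrane genes Hspg2, which encodes perlecan, and Nid1 differed by -0.74 and -0.61, and fibronectin (Fn1) by -0.56.

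Of 18 other metalloproteinase and TIMP genes, 10 were tested, 3 read higher and 7 lower, and the median was -0.13 (0 called, none at unadjusted p under 0.05 by limma). Mmp11 differed by -0.43, Mmp20 by -0.24 and Timp1 by -0.08 without overlap, with adjusted p-values from limma of at least 0.512. The nearest arrays of the groups were 0.08 log2 units apart for Mmp11 and 0.20 for Mmp20. For Timp1 they were only 0.0007 apart, nearly a tie. Mmp9, a gelatinase that Reck also restrains, had a 4-array mean of 2.86, below the filter level, and was not tested. It read 3.06 and 3.03 in the knockout arrays, against 2.67 and 2.68 in the control arrays.

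**Figure D5:**
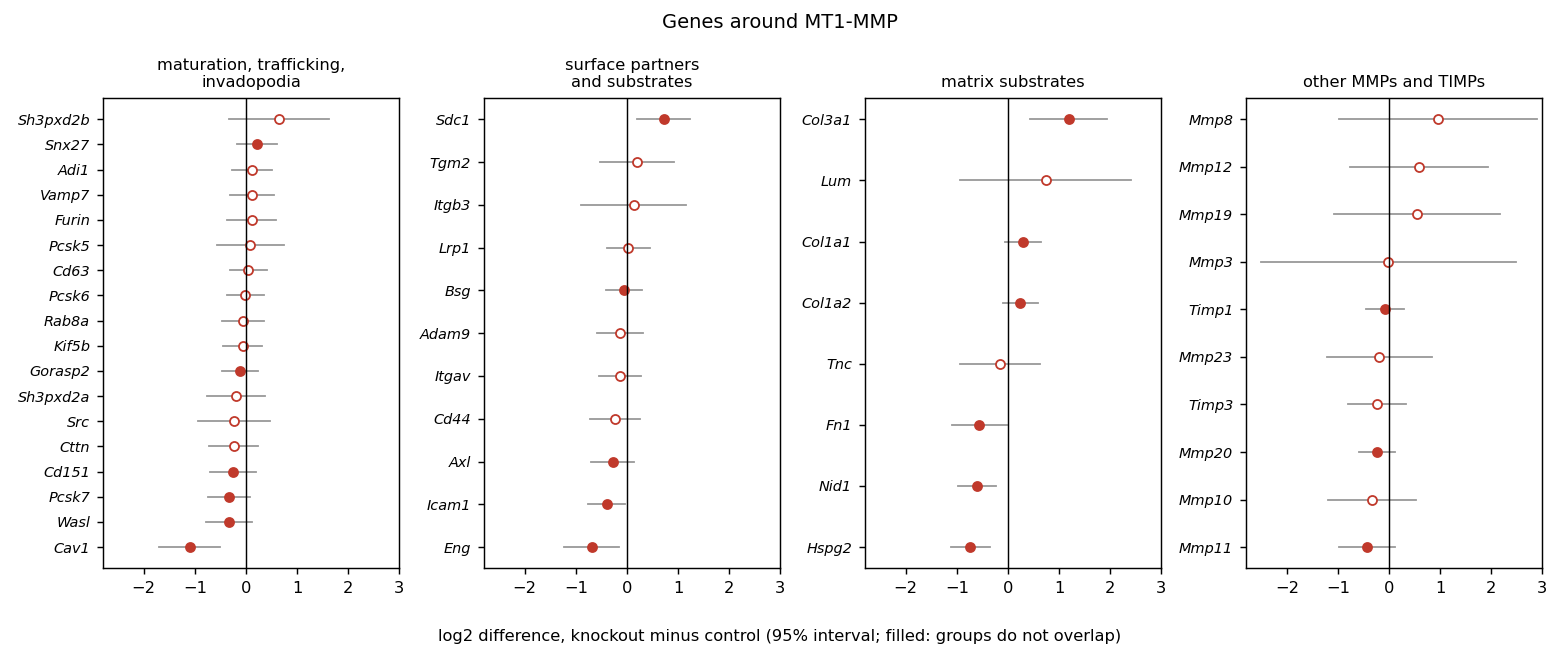
Log2 differences, knockout minus control, of the tested genes in 4 lists around MT1-MMP, with 95% intervals from limma. Filled points are genes whose groups do not overlap. Cav1 lies at -1.10 and Col3a1 at 1.18, the ends of their lists, and none of the genes shown was called.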

How the data were processed

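Expression was measured with 1 array per sample, 2 knockout and 2 control. The authors deposited log2 values per transcript cluster after RMA, which corrects background, normalises between arrays and summarises probes, per the submitters' processing notes. The sources used here give no RMA version, chip definition or build, and the values' range set the log base. Rows (41345) were named from the platform's probe annotation: 23521 had 1 symbol, and a gene with several rows kept the row with the highest mean. limma 3.58.1 (lmFit and eBayes in R 4.3.3) was fitted across 12550 genes without covariates, after leaving out 9630 with a mean below 3.02, and was tested on simulated data. The submitters' design text names 2 pairs, but no label says that a title number marks a pair of mice. The main fit was therefore unpaired, and the title numbers entered as a block only in an alternative. No label says that arrays shared a culture or hybridisation, so p-values measure the spread between these arrays. Array number limits the precision; read depth does not apply. All 10 genes were named by rule, with up to 4 non-overlapping genes of each list by size of difference and the 3 nearest profiles to Mmp14 and Mmp16. Acta2, Actg2, Smtn, Myh11, Myocd, Lyz2, Cd34, Dpt, Serpinf1, Furin, Lrp1, Col1a1, Col1a2, Mmp9, Cd163 and Tek fall outside that rule. So do Ptprb, Cdh5, Pecam1, Emcn, Kdr, Vwf, Flt1, Mrc1, Ptprc, Adgre1 and Ctss. All genes outside the rule were picked once their values had been seen. The genes and lists were chosen with earlier results of these data known. Alternatives were a replicate block, other filters, normalisations and variance models, array weights and leaving out each array. Figures were drawn with matplotlib 3.10.9.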

Additional observations from a re-analysis of the deposited data

How the results depend on the processing

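limma called 0 genes in the comparison of knockout with control, and 0 under each of 13 alternatives; the smallest adjusted p ranged from 0.0708 to 0.429, and the count at an unadjusted p under 0.05 was 1465, or 975 without control replicate 1. The title numbers as a replicate block left Mmp14 at -0.65 (limma, adjusted p = 0.320) and 0 genes called. Under the block Mmp13 entered the genes at an unadjusted p under 0.05 and Timp2 left them (limma, adjusted p = 0.144 and 0.484). Same-numbered arrays deviated from their group means with a correlation of 0.05 over tested genes, so the numbers are not shown to pair the arrays. Mmp14, Mmp16, Mmp13, Timp2 and Reck stayed lower under every alternative in which they were tested. Over arrays left out, Mmp14 ran from -0.82 to -0.48, Mmp16 from -1.96 to -1.53, Mmp13 from -1.85 to -0.55, Timp2 from -0.39 to -0.35 and Reck from -1.46 to -0.91. The sign of the others turned: Mmp2 ran from -0.22 to 0.52, Mmp17 from -0.34 to 0.22 and Mmp24 from -0.0642 to 0.0681. Mmp24 was -0.0202 after a second quantile normalisation and -0.0288 after median centring, and the cause was not tested. Mmp16, Mmp17 and Mmp24 had no value under the 75th percentile filter, and Mmp25 only without a filter. Over the 19 tested genes the macrophage median was 1.15, or 1.02 to 1.23 over arrays left out. Without the filter, over 20 genes, it was 1.09. The endothelial median over 13 tested genes was -0.63, or -0.65 to -0.51 over arrays left out. Without the filter, over 14 genes, it moved to -0.49. The fibroblast median was 0.25 over 8 tested genes, or -0.14 to 0.47, and 0.21 over 9 without the filter. The smooth muscle median was -0.004, or -0.21 to 0.21.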
